A study of Rattus norvegicus with 16 samples.

Results

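The insulin-like growth factor system was described in rat brain through 10 genes, chosen by name: the ligands Igf1 and Igf2, the receptors Igf1r and Igf2r, and the binding proteins Igfbp2 to Igfbp7. A probe was assigned to a gene when its transcript accession belonged to a listed rat gene. All 10 genes had a probe that passed the filter on dim signals, out of 20471 genes tested, and 12 probes represented them. Each of these 12 probes was well above background on 16 of 16 arrays, and none was saturated.

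RNA labelled as brain was hybridised to 16 one-colour arrays, 1 per rat sample, with ages given as 8 weeks and a time of 72 h. In the other rats the middle cerebral artery had been occluded (MCAo), which models ischaemic stroke, and the 5 normal controls had no occlusion. Of the MCAo rats, 5 were given saline and 6 received 1000000 mesenchymal stem cells of human umbilical origin (hUMSC) by vein. The labels name no sham operation, and hemisphere, region, sex and infusion time were not given in the sources used here. Nothing in the labels says more than that the samples are separate, so the tests measure the spread between these samples. The labels' RNA protocol is for blood and names globin reduction, and which protocol was used could not be settled here. The red blood cell genes below include the globins Hbb and Hba-a1. If globin was reduced, their level need not measure blood content. Over the arrays the mean level of 11 neuronal genes was 1.13 to 2.15, that of 5 neutrophil genes -6.85 to -1.98 and that of 4 red blood cell genes -0.53 to 3.59. These are levels on the log2 scale relative to the array's 75th percentile, as are the levels below unless a sentence says otherwise.

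Saline replicates 1 and 5 lay apart from the other saline samples. On the first principal component they scored -26.4 and -43.5, against 31.1 to 32.5 for the other saline samples, -70.0 to -63.4 for controls and 26.6 to 70.8 for hUMSC. Many of the results are therefore given with and without these 2 samples. They were singled out from these same data, and on this component they lay towards the controls. Leaving them out therefore tends to enlarge saline minus control and to shrink hUMSC minus saline. The p-values of fits without them describe the data and are not independent tests. The arrays also lay on 2 slides, each holding samples of every group. Slide 1 held 3 control, 3 saline and 2 hUMSC arrays, and slide 2 held 2, 2 and 4. Within slide 2, 1 of 20471 genes passed an adjusted p of 0.05 (limma) in saline minus control. In hUMSC minus saline it was 0. A gene not passing within slide 2 in these 2 comparisons therefore says little about that gene. Growth hormone, Gh1, stood at 5.49 in control replicate 1, 7.31 in saline replicate 4 and 7.16 in hUMSC replicate 6. On the other arrays it stood at -8.98 to -4.66. Ghrhr, the receptor for growth hormone releasing hormone, stood at -2.03 in saline replicate 4 and -2.23 in hUMSC replicate 6. Elsewhere it was -8.13 to -5.17. What set these samples apart was not tested.

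Igf1 and Igf2 are secreted peptides related to insulin that act on Igf1r, a receptor tyrosine kinase that signals to Akt and mTOR through insulin receptor substrates. Igf2r has no kinase: it carries lysosomal enzymes and removes Igf2 from outside the cell. The binding proteins hold the ligands in fluid and matrix and can block or prolong their action. In the adult rodent brain Igf2 is made mainly by the choroid plexus and the leptomeninges, while microglia and macrophages are a known source of Igf1 after injury.

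Against controls, saline samples had higher Igf1, Igfbp2, Igfbp3, Igfbp6 and Igfbp7. These 5 of 10 genes passed an adjusted p of 0.05 (limma, Benjamini-Hochberg over all genes tested), and none passed in the lower direction. Of all genes tested 27.2% passed, 14.3% higher and 12.8% lower. Without saline replicates 1 and 5, 6 of the 10 genes passed as higher and 1, Igf2, as lower, while the share of all genes called rose to 44.1%. Single samples moved the count. It was 7 without saline replicate 1 and 6 without saline replicate 5, where 31.6% and 37.1% of all genes passed. It was 3 without control replicate 1 or 4, 2 without control replicate 2 or 5 or saline replicate 2 or 3, and 1 without control replicate 3 or saline replicate 4. In those fits 15.6% to 20.4% of all genes passed. The median log2 change of the 10 genes was 0.35, beside -0.04 for all genes.

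The hUMSC samples differed from controls in 7 of the 10 genes. Igf1, Igf2r, Igfbp2, Igfbp3, Igfbp6 and Igfbp7 were higher and Igf2 was lower, and the groups did not overlap for any of these 7 genes. Of all genes tested 62.0% passed in this comparison, and the groups did not overlap for 46.2%. The higher calls made up 24.7% of all genes and the lower calls 37.3%. The median log2 change was 0.61 over the 10 genes and -0.13 over all genes.

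Between hUMSC and saline samples, 0 of the 10 genes passed in limma's test, while 12.8% of all genes did, 4.82% higher and 7.98% lower. Igf2, Igf2r, Igfbp3 and Igfbp7, 4 of the 10, had an unadjusted p under 0.05, and the lowest adjusted p was 0.075, for Igfbp7. Leaving out saline replicate 4 gave 2 calls, and leaving out saline replicate 2 or hUMSC replicate 8 gave 1, with 19.6%, 20.8% and 19.8% of all genes called. Without saline replicates 1 and 5 the count stayed at 0, and only 0.112% of all genes passed. It was also 0 without saline replicate 1 or 5 alone, with array weights and with only these 2 groups. In those fits 0.230% to 1.85% of all genes passed, and at most 1 of the 10 had an unadjusted p under 0.05. A p above the threshold does not show that the groups were alike. The 3 comparisons share samples with one another, so their values stand side by side and are not independent.

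**Figure D1:**
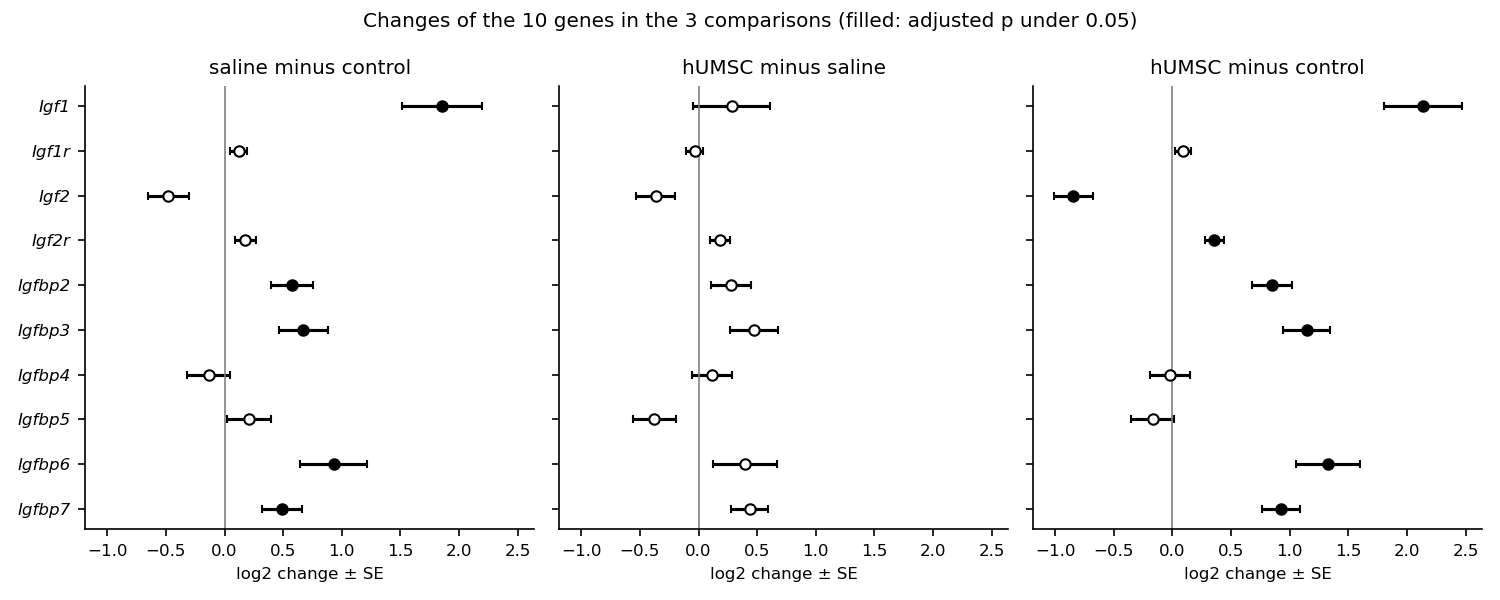
The x axis is the log2 change ± SE for each of the 10 genes in the 3 comparisons, from the limma model over 16 arrays. Filled points have an adjusted p under 0.05: 5 genes in saline minus control, none in hUMSC minus saline and 7 in hUMSC minus control.

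**Figure D2:**
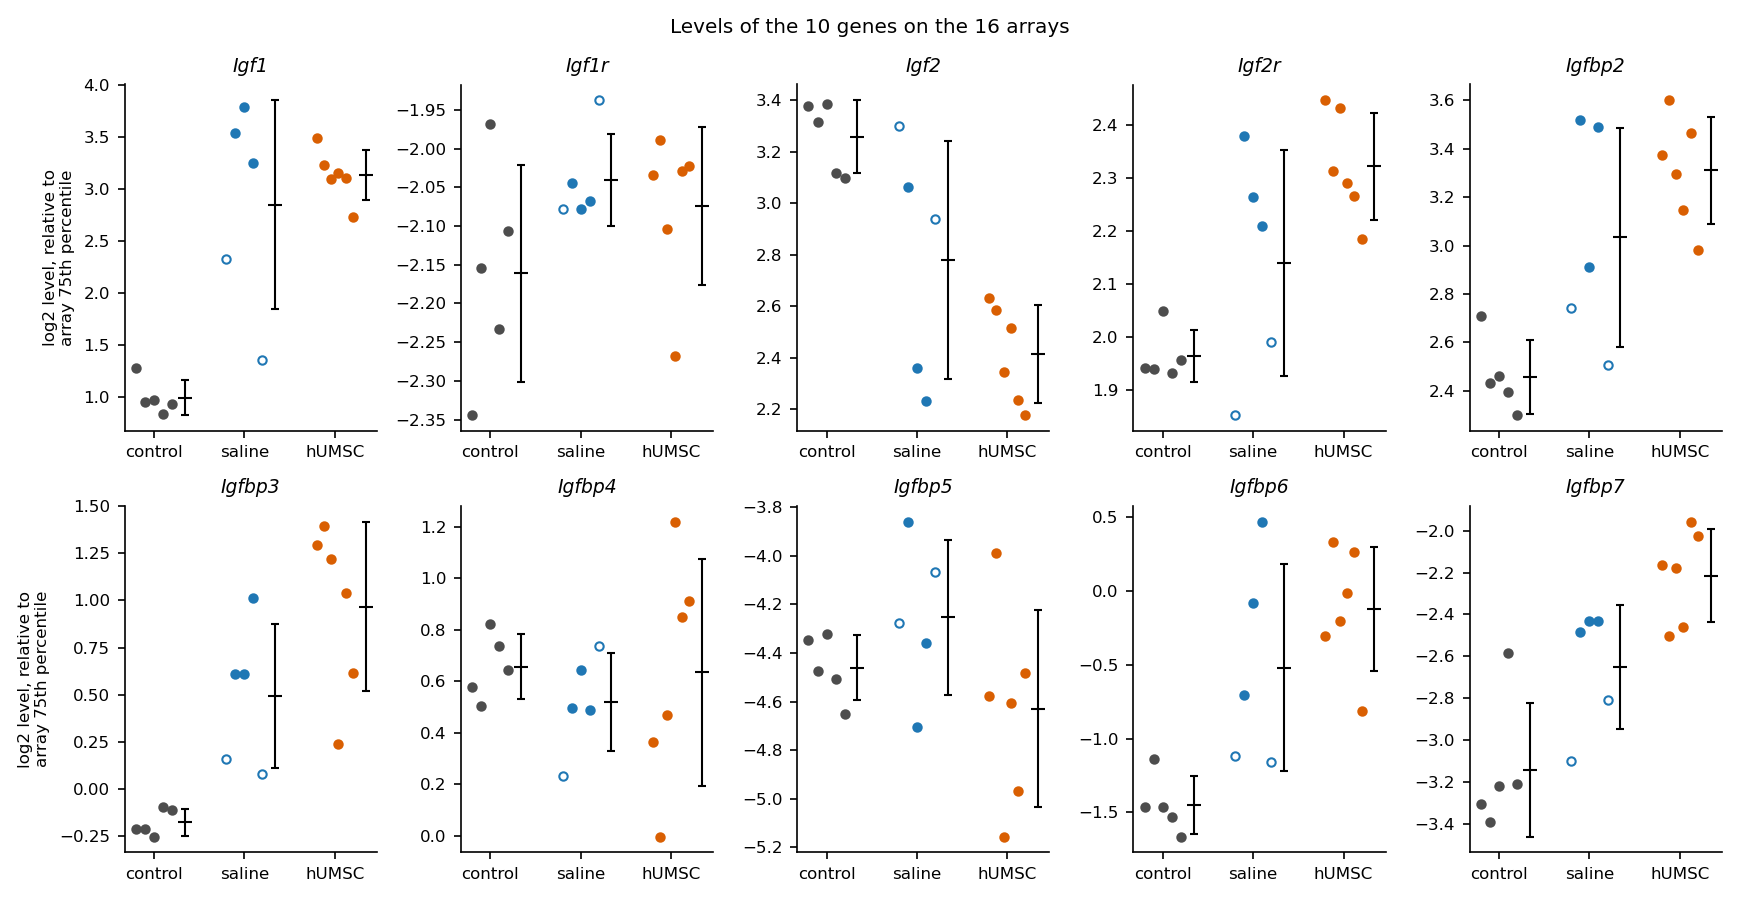
The y axes give the log2 level relative to the array's 75th percentile, each with its own range. Points are arrays, open points are saline replicates 1 and 5, and bars are mean ± SD over 5, 5 and 6 arrays. Igf1 lay between 0.84 and 1.28 in controls and between 2.74 and 3.49 in hUMSC samples, with open points between these ranges.

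The ligand genes moved in opposite directions, so the 250 bases before their RefSeq start sites (rat build GRCr8) are shown. They are followed by those of the neighbouring genes Igfbp2, which rose, and Igfbp5, which did not pass. Capitals mark matches, on either strand, to the motifs spelled out after the sequences. The palindrome CACGTG counts as 2 hypoxia cores, 1 on each strand. Igf2 has 2 start sites in the table.
Igf1, chr7:24172282-24172531, plus strand: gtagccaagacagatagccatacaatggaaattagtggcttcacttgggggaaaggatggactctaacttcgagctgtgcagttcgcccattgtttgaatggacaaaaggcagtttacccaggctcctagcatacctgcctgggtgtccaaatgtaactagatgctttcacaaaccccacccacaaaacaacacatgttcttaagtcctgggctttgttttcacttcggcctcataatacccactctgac
Igf2 window 1, chr1:207253981-207254230, minus strand: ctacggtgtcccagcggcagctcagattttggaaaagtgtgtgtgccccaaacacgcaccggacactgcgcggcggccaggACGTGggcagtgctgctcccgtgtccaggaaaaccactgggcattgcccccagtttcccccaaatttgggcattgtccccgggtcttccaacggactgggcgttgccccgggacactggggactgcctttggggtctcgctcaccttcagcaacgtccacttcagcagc
Igf2 window 2, chr1:207250476-207250725, minus strand: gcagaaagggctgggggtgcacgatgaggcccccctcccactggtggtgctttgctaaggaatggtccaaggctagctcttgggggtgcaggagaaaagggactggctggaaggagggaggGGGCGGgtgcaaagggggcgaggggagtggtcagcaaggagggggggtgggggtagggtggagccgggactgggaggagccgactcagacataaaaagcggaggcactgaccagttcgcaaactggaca
Igfbp2, chr9:81864561-81864810, plus strand: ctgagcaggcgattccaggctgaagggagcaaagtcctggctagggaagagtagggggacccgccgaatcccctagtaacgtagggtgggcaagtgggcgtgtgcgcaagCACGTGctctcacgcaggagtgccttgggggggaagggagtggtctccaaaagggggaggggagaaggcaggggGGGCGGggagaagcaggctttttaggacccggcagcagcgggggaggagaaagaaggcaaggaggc
Igfbp5, chr9:81914188-81914437, minus strand: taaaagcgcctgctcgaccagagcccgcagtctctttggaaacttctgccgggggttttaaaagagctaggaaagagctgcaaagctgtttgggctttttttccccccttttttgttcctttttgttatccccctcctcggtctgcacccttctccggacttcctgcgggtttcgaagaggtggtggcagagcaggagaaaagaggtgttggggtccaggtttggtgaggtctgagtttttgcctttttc
The Igf1 and Igfbp5 windows held no match, and the Igf2 windows held 1 hypoxia core and 1 GC box. Igfbp2 held 1 GC box and 2 hypoxia cores. All 10 genes were found in the RefSeq promoter table, with 11 windows. The GC box, searched as GGGCGG, was in 5 of the 11 windows and in 30.5% of 33469 windows of all genes. The core of the hypoxia response element, searched as ACGTG, was in 5 of 11 and in 16.6% of all. The TATA box, searched as TATAAA, was in 1 of 11 and in 12.9% of all. The AP-1 site, searched as TGANTCA, was in 0 of 11 and in 6.34% of all. The STAT site, searched as TTCNNNGAA, was in 0 of 11 and in 7.67% of all. A match describes these letters and no binding was measured.

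Igf1, the growth-promoting ligand, was higher in both MCAo groups. Its level in control replicates 1 to 5 was 1.28, 0.95, 0.98, 0.84 and 0.93. In saline replicates 1 to 5 it was 2.33, 3.54, 3.78, 3.25 and 1.36. The 6 hUMSC samples ran from 2.74 through a median of 3.13 to 3.49. Every MCAo sample lay above every control, and saline replicate 5 was only slightly above the highest control. The SD was 0.17 in controls, 1.00 in saline and 0.24 in hUMSC samples.

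The log2 change of Igf1 was 1.85 ± 0.34 (SE; n = 5 and 5), 3.62-fold, for saline over control (limma, adjusted p = 0.0024). Leaving out saline replicates 1 and 5 gave 2.53. With slide as a block it was 1.85 (adjusted p = 0.0016), within slide 1 it was 2.15 (adjusted p = 0.021) and within slide 2 it was 1.42 (adjusted p = 0.39). For hUMSC over control it was 2.14 ± 0.33 (SE; n = 6 and 5), 4.40-fold (adjusted p = 8.6e-05), with 2.29 within slide 1 and 2.13 within slide 2, both past the threshold in limma. Between hUMSC and saline the difference was 0.28 ± 0.33 (limma, adjusted p = 0.54), and leaving out saline replicate 5 turned it to -0.09 and leaving out replicate 1 as well to -0.39. The order of group means was control, saline, hUMSC, and the upper pair did not differ beyond its spread. A separate, dimmer Igf1 probe gave 1.79, 0.24 and 2.03 for the changes saline minus control, hUMSC minus saline and hUMSC minus control. The offset between the 2 probes stayed within 0.83 to 1.01 over the 16 arrays (SD 0.05).

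Phagocyte markers moved with Igf1. Of 12 listed genes, 11 were tested (Itgax had no tested probe), and 11 of 11 were higher in saline and in hUMSC samples than in controls. Controls had a mean marker level of -0.40 to -0.13, saline samples of 1.28 to 3.74 and hUMSC samples of 3.55 to 4.37. Saline replicates 5 and 1, the lowest saline samples for Igf1, were also the lowest for these markers, at 1.28 and 2.14. Across 16 arrays the deviations from group means of Igf1 and of this mean correlated at r = 0.96, and at r = 0.70 over the 14 arrays without saline replicates 1 and 5. Phagocyte markers were not alone in this. Over 16 arrays r was 0.91 with markers of dividing cells, 0.85 with reactive astrocytes and -0.82 with neurons. Over 14 arrays it was 0.69 with choroid plexus and ependyma and 0.68 with oligodendrocytes, where it was -0.28 and 0.05 over 16. The part of these cells in the Igf1 result was not tested. In bulk tissue a change in the number of cells and a change in RNA per cell cannot be told apart.

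Among the genes whose deviations were most like those of Igf1 were Bcl2a1, an anti-apoptotic BCL2 relative (r = 0.98), and Ptpn6, a tyrosine phosphatase (r = 0.97). These values, like all such correlations here, are over 16 arrays that share scaling and slides. Over the 14 arrays they were 0.88 and 0.82. Among the other 9 genes, Igf2r (r = 0.75) and Igfbp2 (r = 0.71) came closest to Igf1, and over 14 arrays these were 0.54 and 0.21. Bcl2a1, Ptpn6 and the genes named below for their likeness were picked by highest r from 12610 tested genes with a symbol. How high r would run by such a pick among unrelated genes was not tested.

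**Figure D3:**
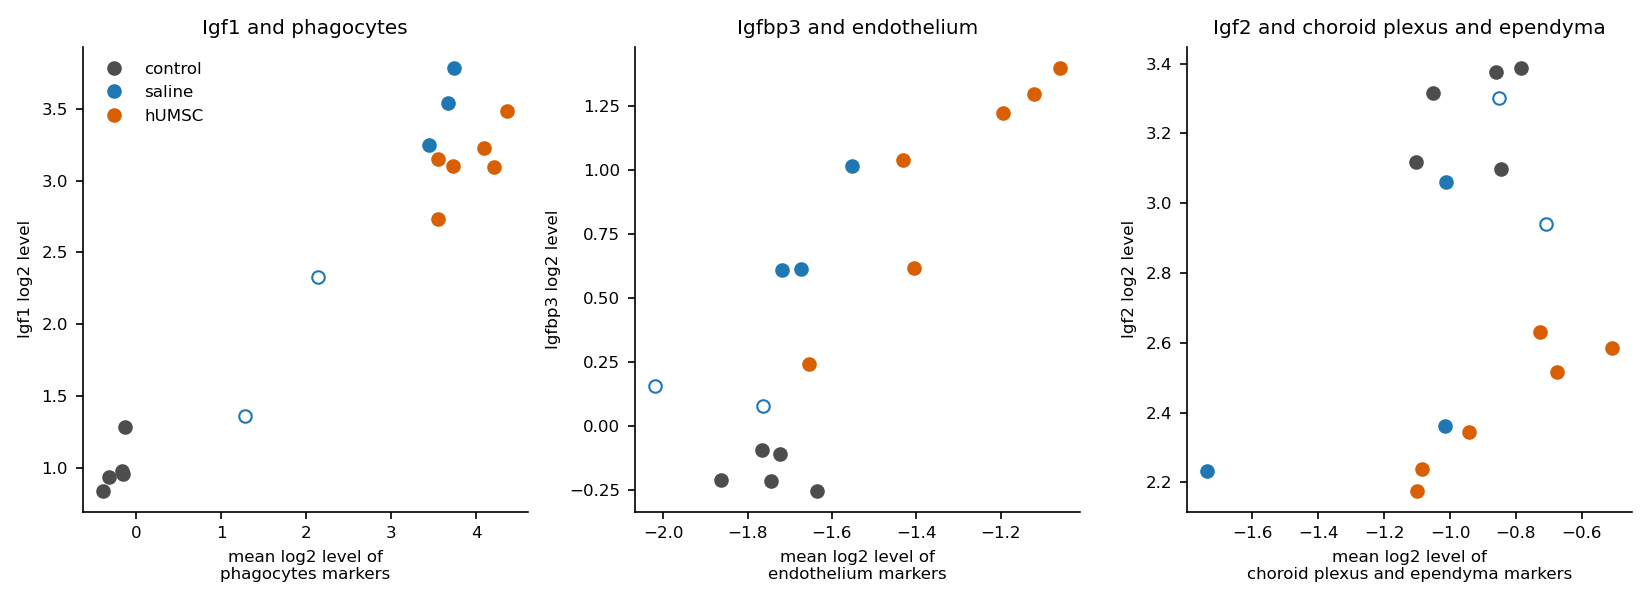
The y axes give the log2 level of Igf1, Igfbp3 and Igf2, and the x axes the mean log2 level of phagocyte, endothelial, and choroid plexus and ependyma markers. Points are the 16 arrays, open points saline replicates 1 and 5. For Igf1 the open points lie between controls and the other saline samples on both axes, and for Igf2 the hUMSC points lie at 2.18 to 2.63 across marker levels of -1.10 to -0.51.

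Igf2, the fetal growth factor, was lower in hUMSC samples. Control replicates 1 to 5 stood at 3.38, 3.32, 3.39, 3.12 and 3.10. In saline replicates 1 to 5 it was 3.30, 3.06, 2.36, 2.23 and 2.94. The hUMSC samples ran from 2.18 through a median of 2.43 to 2.63. All hUMSC samples lay below all controls, while saline samples reached into both ranges. The order of means was hUMSC, saline, control, and neither neighbouring pair passed the test.

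For hUMSC minus control the log2 change of Igf2 was -0.84 ± 0.17 (SE; n = 6 and 5), 1.80-fold lower (limma, adjusted p = 0.00057). With slide as a block it was -0.77, and it was -0.75 within slide 1 and -0.79 within slide 2, past the threshold each time in limma. Igf2 was lower on slide 2 than on slide 1 in each group, by 0.25 in controls, 0.32 in saline and 0.29 in hUMSC samples. The saline minus control difference was -0.48 ± 0.18 (limma, adjusted p = 0.054). Leaving out saline replicate 1 gave -0.61 (adjusted p = 0.013), leaving out replicate 5 gave -0.52 (adjusted p = 0.044) and leaving out both gave -0.71 (adjusted p = 0.0043). With slide as a block it was -0.48 (limma, adjusted p = 0.03), and within slides 1 and 2 it was -0.45 and -0.52, with adjusted p of 0.19 and 0.42. With median scaling it was -0.55 (limma, adjusted p = 0.027). The hUMSC minus saline difference was -0.36 ± 0.17 (limma, adjusted p = 0.13), and it was -0.50 (adjusted p = 0.038) without saline replicate 4. That was the only 1 of 11 such fits without 1 replicate to pass, and they ran from -0.50 to -0.23. Without saline replicates 1 and 5 the difference was -0.14 and did not pass.

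None of the choroid plexus and ependyma markers passed as lower. Of 11 tested, 0 were lower in any of the 3 comparisons in limma's test, and 0 also at an unadjusted p under 0.05, while 1, 0 and 2 were higher in saline minus control, hUMSC minus saline and hUMSC minus control. In the same order the list's median log2 change was -0.23, 0.24 and 0.03, beside -0.04, -0.07 and -0.13 over all genes. Not passing does not show that these markers were unchanged. Controls had a mean marker level of -1.10 to -0.78, saline samples of -1.74 to -0.71 and hUMSC samples of -1.10 to -0.51. Saline replicate 4, with the lowest saline Igf2 at 2.23, had the lowest value of this list. Within groups the deviations of Igf2 and this list correlated at r = 0.73 over 16 arrays and r = 0.69 over 14. With red blood cell markers r was 0.62 and 0.46, and with leptomeningeal and fibroblast markers 0.13 and 0.53. With homeostatic microglia it was 0.17 and 0.47, and with phagocytes -0.34 and 0.45. Of 12 leptomeningeal and fibroblast markers, 9 were higher and 1 lower in hUMSC samples than in controls. Controls had a mean marker level of -0.53 to -0.20, saline samples of -0.32 to 0.58 and hUMSC samples of 0.11 to 1.01. The part of these cells in the Igf2 result was not tested. Closest to Igf2 were Psma3, a proteasome subunit (r = 0.91), Pals2 (r = 0.90) and Usp42, a deubiquitinase (r = 0.89), and over 14 arrays these were 0.85, 0.84 and 0.87.

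H19, the long noncoding RNA next to Igf2, had the largest change against controls, in both MCAo groups, of the 46 pathway genes tested outside the 10. In the RefSeq table no protein-coding gene lies between H19 and Igf2. The pair is a known imprinted locus, with H19 read from the maternal and Igf2 mostly from the paternal copy. The level of H19 in control replicates 1 to 5 was -4.56, -4.80, -4.94, -5.55 and -5.11. In saline replicates 1 to 5 it was -1.01, 1.28, 0.73, 1.03 and -2.15. In hUMSC replicates 5 to 10 it was 1.57, 1.56, 0.87, -0.30, 1.84 and -0.56. All MCAo samples lay above all controls, and saline replicates 1 and 5 were the lowest of them.

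The log2 change of H19 was 4.97 ± 0.62 for saline minus control (limma, adjusted p = 0.00029) and 6.01 without saline replicates 1 and 5. For hUMSC minus control it was 5.82 ± 0.60 (limma, adjusted p = 5.2e-06). With another background correction (normexp) these changes were 3.93 and 4.75. Within slide 2 the saline minus control change was 4.77 (limma, adjusted p = 0.32), in a fit where 1 of 20471 genes passed. The hUMSC minus saline difference was 0.86 ± 0.60 (limma, adjusted p = 0.30) and turned to -0.18 without saline replicates 1 and 5. H19 was well above background on every array.

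H19 contains the hairpin of miR-675 (chr1:207161752-207161835, minus strand, GRCr8). Its mature sequences are shown because the rise of H19 against controls is the largest among the pathway genes tested, with the seed, bases 2 to 8, in capitals. The microRNAs themselves were not measured on these arrays.
rno-miR-675-5p: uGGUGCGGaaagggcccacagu
rno-miR-675-3p: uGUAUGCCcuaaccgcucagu

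**Figure D4:**
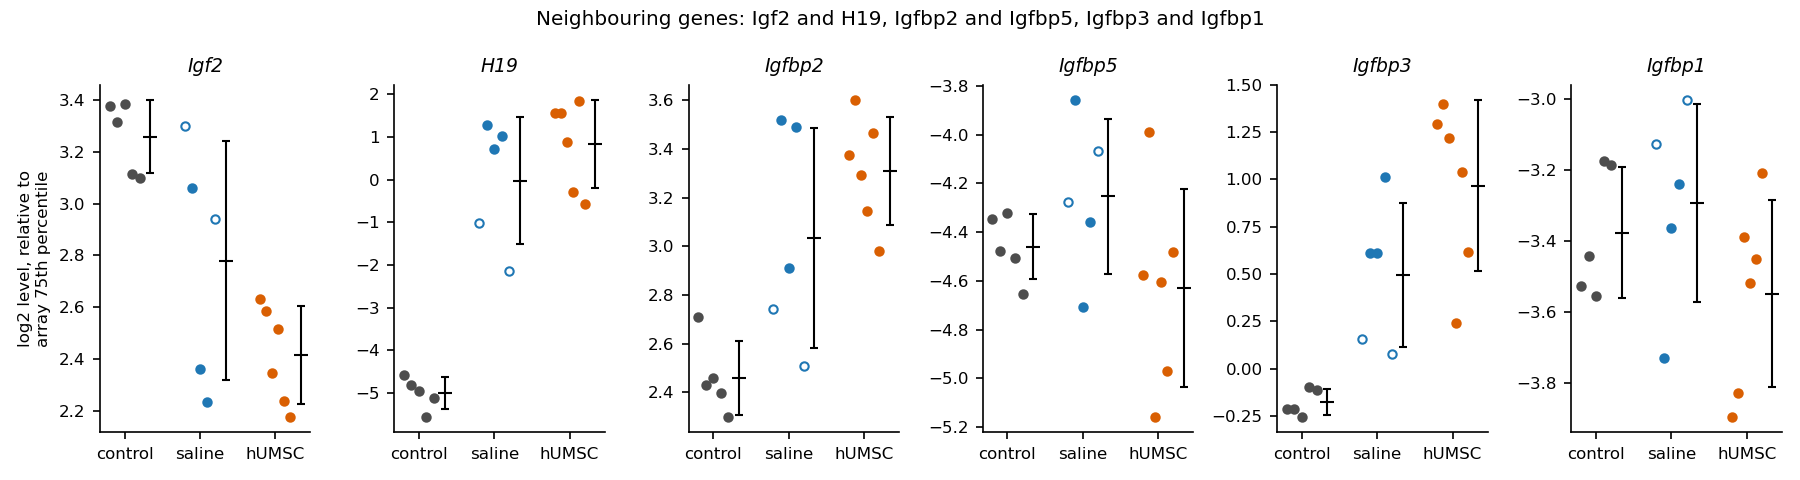
The y axes give the log2 level relative to the array's 75th percentile for 3 pairs of neighbouring genes, by group, with mean ± SD and open points for saline replicates 1 and 5. H19 lies at -5.55 to -4.56 in controls and at -2.15 to 1.84 in the MCAo samples, whereas Igf2 lies lower in hUMSC samples than in controls. Igfbp5 and Igfbp1 show overlapping groups beside Igfbp2 and Igfbp3.

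Of the receptors, Igf1r passed in no comparison and Igf2r in 1. Igf1r, which carries the growth signal, stood at -2.34, -2.15, -1.97, -2.23 and -2.11 in control replicates 1 to 5 and at -2.08, -2.04, -2.08, -2.07 and -1.94 in saline replicates 1 to 5. The hUMSC samples ran from -2.27 through a median of -2.03 to -1.99, so the 3 groups overlapped. Its log2 changes were 0.12 ± 0.07 for saline minus control, -0.03 ± 0.07 for hUMSC minus saline and 0.09 ± 0.07 for hUMSC minus control, with limma adjusted p of 0.23, 0.73 and 0.29. The probe was spotted 10 times per array, with an SD between spots of 0.07 and between samples within groups of 0.11. The genes most like Igf1r were Cryba1, a lens crystallin (r = 0.81), Ces2b, a carboxylesterase (r = 0.78), and Syt8, a synaptotagmin (r = 0.77). A highest r picked from 12610 genes is raised by the picking itself, so these values do not establish a likeness.

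Igf2r, the clearance receptor of Igf2, was higher in hUMSC samples than in controls. Its level in control replicates 1 to 5 was 1.94, 1.94, 2.05, 1.93 and 1.96. In saline replicates 1 to 5 it was 1.85, 2.38, 2.26, 2.21 and 1.99, and in hUMSC samples it ran from 2.18 through a median of 2.30 to 2.45. The hUMSC samples lay above all controls, and saline replicates 1 and 5 lay within or below the control range. For hUMSC minus control the log2 change was 0.36 ± 0.08 (limma, adjusted p = 0.0020), 1.28-fold. It was 0.38 with slide as a block, 0.40 (adjusted p = 0.065) within slide 1 and 0.35 (adjusted p = 0.046) within slide 2 in limma. The saline minus control difference was 0.18 ± 0.09 (limma, adjusted p = 0.15). Leaving out saline replicate 1 gave 0.25 (adjusted p = 0.028), and leaving out replicate 5 too gave 0.32 (adjusted p = 0.0024). The hUMSC minus saline difference was 0.18 ± 0.08 (limma, adjusted p = 0.13), 0.04 without saline replicates 1 and 5 and 0.24 (adjusted p = 0.048) without saline replicate 2.

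Igf2r deviated within groups like Cd300le (r = 0.93), Napsa, an aspartic protease (r = 0.92), and Il1b, an inflammatory cytokine (r = 0.92). Over 14 arrays these were 0.75, 0.79 and 0.80. Its correlation with the mean of phagocyte markers was 0.83 over 16 arrays and 0.78 over 14. With neutrophil markers it was 0.82 and 0.69, and with neuronal genes -0.81 and -0.56. The part of these cells in the Igf2r result was not tested.

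Igfbp2, the main binding protein of cerebrospinal fluid, rose in both MCAo groups. In control replicates 1 to 5 its level was 2.71, 2.43, 2.46, 2.39 and 2.30, and in saline replicates 1 to 5 it was 2.74, 3.52, 2.91, 3.49 and 2.51. The hUMSC samples ran from 2.98 through a median of 3.33 to 3.60. They lay above all controls, while saline replicate 5 lay inside the control range. Control replicate 1 and hUMSC replicate 6, where Gh1 was high, were the highest of their groups, and saline replicate 4 was not. The log2 change was 0.57 ± 0.18 for saline minus control (limma, adjusted p = 0.029), 1.49-fold, and 0.85 ± 0.17 for hUMSC minus control (adjusted p = 0.00063), 1.80-fold. The hUMSC minus saline difference was 0.28 ± 0.17 (limma, adjusted p = 0.24) and 0.0043 without saline replicates 1 and 5. The other Igfbp2 probe gave 0.51, 0.33 and 0.84 for saline minus control, hUMSC minus saline and hUMSC minus control.

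The saline call of Igfbp2 was lost in limma when control replicate 2 (adjusted p = 0.055), 3 (0.055), 4 (0.057) or 5 (0.065), or saline replicate 2 (0.083) or 4 (0.081), was left out. Without saline replicates 1 and 5 the change was 0.85 (limma, adjusted p = 0.00088). Within slide 1 it was 0.52 (limma, adjusted p = 0.11) and within slide 2 0.65 (adjusted p = 0.42), against 0.57 (adjusted p = 0.025) with slide as a block. The hUMSC minus control change was 0.95 within slide 1 and 0.87 within slide 2, past the threshold in both.

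Reactive astrocyte markers were higher in both MCAo groups, as Igfbp2 was. Of 10 tested, 8 were higher in saline and 10 in hUMSC samples than in controls. Controls had a mean marker level of -2.95 to -2.49, saline samples of -1.64 to 0.69 and hUMSC samples of -0.0010 to 1.15. Igfbp2 correlated with this mean at r = 0.81 over 16 arrays and r = 0.58 over 14, and the part of astrocytes in the result was not tested. With markers of dividing cells r was 0.78 and 0.46, and with leptomeningeal and fibroblast markers 0.69 and 0.54. Neuronal genes gave -0.77 and -0.49, phagocyte markers 0.74 and 0.32, and pericyte and smooth muscle markers 0.71 and 0.44. Resting astrocyte markers gave -0.66 and -0.55. Closest to Igfbp2 were Prss23, a serine protease (r = 0.97), Sufu, a repressor of hedgehog signalling (r = 0.95), and Bag1, a co-chaperone (r = 0.92). Over 14 arrays these were 0.96, 0.92 and 0.86.

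Igfbp5, the matrix-binding neighbour of Igfbp2 with no protein-coding gene between them in the RefSeq table, did not pass in any comparison. In control replicates 1 to 5 it stood at -4.35, -4.48, -4.32, -4.51 and -4.65, and in saline replicates 1 to 5 at -4.27, -3.86, -4.71, -4.36 and -4.07. The hUMSC samples ran from -5.16 through a median of -4.59 to -3.99. The groups overlapped, and the hUMSC samples spread most, with an SD of 0.41. The log2 changes were 0.21 ± 0.19, -0.38 ± 0.18 and -0.17 ± 0.18 for saline minus control, hUMSC minus saline and hUMSC minus control (limma, adjusted p = 0.44, 0.14 and 0.43). Igfbp5 deviated most like Hyou1, a chaperone of the endoplasmic reticulum (r = 0.87), Slc14a2, a urea transporter (r = 0.85), and L3hypdh (r = 0.85).

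Igfbp3, the main carrier of the ligands in blood, rose in both MCAo groups. Control replicates 1 to 5 stood at -0.21, -0.21, -0.25, -0.09 and -0.11, with an SD of 0.07. In saline replicates 1 to 5 it was 0.16, 0.61, 0.61, 1.01 and 0.08, and in hUMSC replicates 5 to 10 it was 1.30, 1.40, 1.22, 0.24, 1.04 and 0.61. All MCAo samples lay above all controls, so Igfbp3 and Igf1 were the 2 genes of the 10 with no overlap between saline and control, a pattern found for 18.3% of all genes. Among hUMSC samples replicate 8 was the lowest. Saline replicate 4 and hUMSC replicate 6, where Gh1 was high, were the highest of their groups. Control replicate 1, where Gh1 was also high, was not the highest control.

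The log2 change of Igfbp3 was 0.67 ± 0.21 for saline minus control (limma, adjusted p = 0.030), 1.59-fold, and 1.14 ± 0.20 for hUMSC minus control (adjusted p = 0.00022), 2.21-fold. The saline call was lost in limma without control replicate 1 (adjusted p = 0.056), 2 (0.056) or 3 (0.060), or saline replicate 2 (0.070), 3 (0.068) or 4 (0.083). Leaving out saline replicates 1 and 5 gave 0.92 (limma, adjusted p = 0.0042), and it was 0.69 (adjusted p = 0.026) within slide 1 and 0.65 (adjusted p = 0.48) within slide 2. The hUMSC minus control change was 1.57 (limma, adjusted p = 0.0018) within slide 1 and 0.88 (adjusted p = 0.080) within slide 2. For hUMSC minus saline the difference was 0.47 ± 0.20 (limma, adjusted p = 0.11). It was 0.89 (adjusted p = 0.046) within slide 1, 0.23 (adjusted p = 0.70) within slide 2, 0.62 (adjusted p = 0.029) without hUMSC replicate 8 and 0.60 (adjusted p = 0.047) without saline replicate 4. Without saline replicates 1 and 5 the hUMSC minus saline difference was 0.22 (limma, adjusted p = 0.68).

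Endothelial markers followed Igfbp3 within groups. Of 10 tested, 0 were higher (0 at an unadjusted p under 0.05 in limma) and 2 lower in saline samples than in controls, and 6 were higher in hUMSC samples than in controls. Controls had a mean marker level of -1.86 to -1.63, saline samples of -2.02 to -1.55 and hUMSC samples of -1.65 to -1.06. Deviations of Igfbp3 correlated with this mean at r = 0.85 over 16 arrays and 0.87 over 14, and with the mean of 11 neuronal genes at -0.87 and -0.85. Other lists came close. Over 14 arrays r was 0.83 with markers of dividing cells, 0.73 with leptomeningeal and fibroblast markers, 0.72 with reactive and -0.81 with resting astrocytes. Neuronal genes were lower in hUMSC samples than in controls for 10 of 11, with a mean of 2.10 to 2.15 in controls, of 1.48 to 2.05 in saline samples and of 1.13 to 1.56 in hUMSC samples. The part of these cells in the Igfbp3 result was not tested. Among the genes most like Igfbp3 were Nnmt, nicotinamide N-methyltransferase (r = 0.95), and Smoc2, a secreted matrix protein (r = 0.95), both with 0.94 over 14 arrays. Its neighbour Igfbp1, the liver's insulin-regulated binding protein, changed by 0.08 ± 0.15, -0.26 ± 0.14 and -0.17 ± 0.14 in saline minus control, hUMSC minus saline and hUMSC minus control (limma, adjusted p = 0.71, 0.20 and 0.31).

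Igfbp4, a binding protein that restrains the ligands until cleaved by the protease Pappa, did not pass in any comparison. It stood at 0.58, 0.50, 0.82, 0.74 and 0.64 in control replicates 1 to 5, and in saline replicates 1 to 5 at 0.23, 0.50, 0.65, 0.49 and 0.74. The hUMSC replicates 5 to 10 stood at 0.37, -0.0028, 0.47, 1.22, 0.85 and 0.91. Replicates 5 and 6, on slide 1, were the lowest hUMSC samples and replicate 8 the highest. The log2 changes were -0.14 ± 0.18, 0.12 ± 0.17 and -0.02 ± 0.17 for saline minus control, hUMSC minus saline and hUMSC minus control (limma, adjusted p = 0.61, 0.63 and 0.92). Igfbp4 ran against Igfbp3 within groups, with r = -0.66 over 16 arrays and -0.85 over 14. Over those 14 arrays it correlated at 0.84 with the neuronal mean and at -0.88 with the leptomeningeal and fibroblast mean. The genes most like Igfbp4 were Rimbp2, a protein of the presynaptic active zone (r = 0.85), Csrnp3 (r = 0.83) and Slc16a7, a monocarboxylate transporter (r = 0.83). These 3 values were also raised by the picking from 12610 genes.

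**Figure D5:**
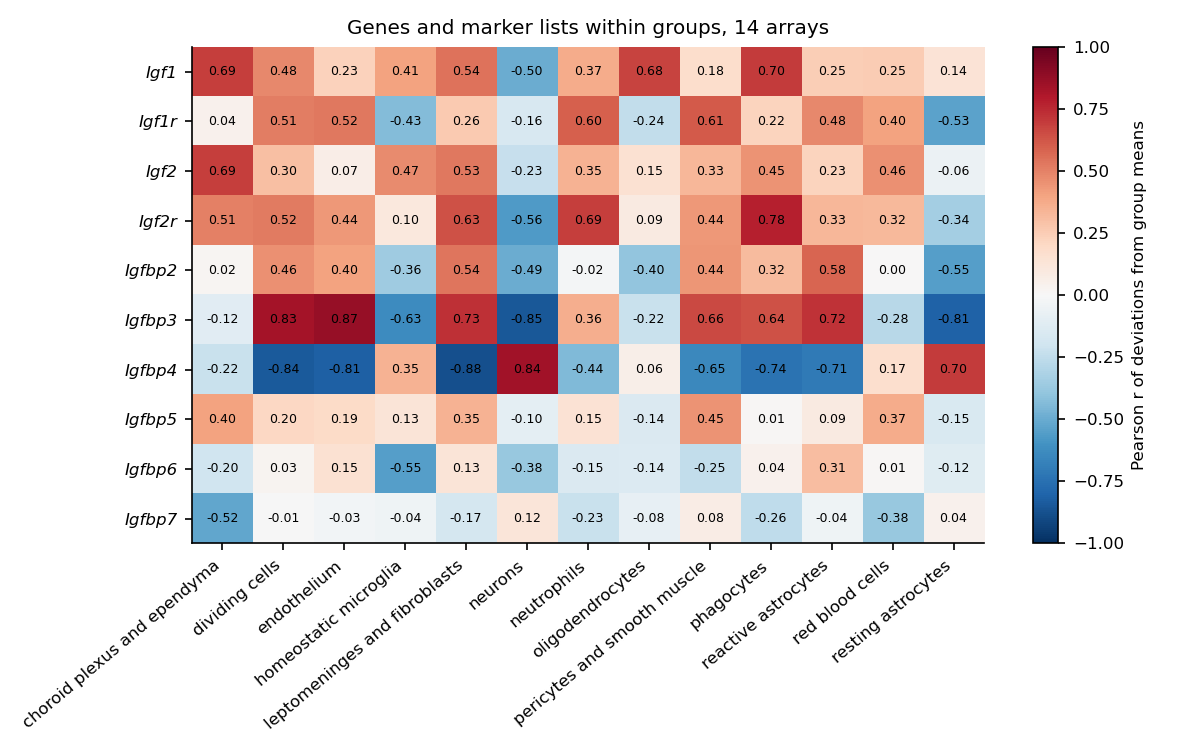
Colour and number give Pearson's r between each of the 10 genes (rows) and the mean level of 13 cell type marker lists (columns), from deviations from group means over the 14 arrays without saline replicates 1 and 5. Igfbp3 and Igfbp4 have opposite signs for endothelium (0.87 and -0.81) and for neurons (-0.85 and 0.84), and Igf1 and Igf2r reach 0.70 and 0.78 with phagocytes.

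Igfbp6, which prefers Igf2 over Igf1, rose in both MCAo groups. In control replicates 1 to 5 its level was -1.46, -1.14, -1.46, -1.53 and -1.66, and in saline replicates 1 to 5 it was -1.12, -0.71, -0.08, 0.47 and -1.16. The hUMSC samples ran from -0.81 through a median of -0.11 to 0.33. They lay above all controls, and saline replicate 5 fell just inside the control range. Saline replicate 4 and hUMSC replicate 6, where Gh1 was high, were the highest of their groups, and control replicate 1 was not. The part of what set these samples apart in the Igfbp6 result was not tested. The log2 change was 0.93 ± 0.28 for saline minus control (limma, adjusted p = 0.027), 1.91-fold, and 1.33 ± 0.27 for hUMSC minus control (adjusted p = 0.00072), 2.51-fold. For hUMSC minus saline it was 0.40 ± 0.27 (limma, adjusted p = 0.29) and -0.02 without saline replicates 1 and 5.

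The saline call of Igfbp6 was lost in limma without control replicate 3 (adjusted p = 0.052), 4 (0.052) or 5 (0.059), or saline replicate 3 (0.073) or 4 (0.066). Without saline replicates 1 and 5 the change was 1.34 (limma, adjusted p = 0.0014). Within slides 1 and 2 it was 0.72 and 1.25 (limma, adjusted p = 0.12 and 0.42), and the hUMSC minus control change was 1.36 and 1.41 (adjusted p = 0.011 and 0.055). Most like Igfbp6 were Lnx2, a ubiquitin ligase (r = 0.89), Ogg1, a DNA repair glycosylase (r = 0.88), and Neurl2 (r = 0.87), with 0.80, 0.80 and 0.78 over 14 arrays.

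Igfbp7, a secreted matrix protein that binds the ligands weakly, rose in both MCAo groups. In control replicates 1 to 5 its level was -3.30, -3.39, -3.22, -2.58 and -3.21, and in saline replicates 1 to 5 it was -3.10, -2.49, -2.43, -2.43 and -2.81. The hUMSC samples ran from -2.50 through a median of -2.17 to -1.96. Control replicate 4 stood apart from the other controls, close to the hUMSC range but outside it. The log2 change was 0.49 ± 0.17 for saline minus control (limma, adjusted p = 0.042), 0.93 ± 0.16 for hUMSC minus control (adjusted p = 0.00020) and 0.44 ± 0.16 for hUMSC minus saline (adjusted p = 0.075). Leaving out saline replicates 1 and 5 gave 0.69 (limma, adjusted p = 0.0049), 0.93 and 0.23.

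The saline call of Igfbp7 ended under most single omissions. In limma its adjusted p was 0.089, 0.097, 0.082 and 0.079 without control replicates 1, 2, 3 and 5, and 0.10 without saline replicate 2, 3 or 4. With median scaling it was 0.42 (limma, adjusted p = 0.059), with quantile normalisation 0.43 (adjusted p = 0.061), and within slides 1 and 2 it was 0.63 and 0.28 (adjusted p = 0.064 and 0.61). The hUMSC minus control change was 0.97 and 0.74 within slides 1 and 2 (limma, adjusted p = 0.0089 and 0.044). The probe's 2 spots disagreed: the second was brighter on 16 of 16 arrays, by 0.04 to 0.33 on slide 1 and by 0.33 to 0.95 on slide 2. For hUMSC minus control the first spot alone gave 0.88 and the second 0.97, and for saline minus control 0.51 (limma, adjusted p = 0.047) and 0.47 (adjusted p = 0.12). The genes most like Igfbp7 were Gtse1, a cell cycle protein (r = 0.82), Lpar4, a lysophosphatidic acid receptor (r = 0.80), and Dhrs1 (r = 0.79). Over 14 arrays these were 0.71, 0.68 and 0.68. As for Igf1r, the picking from 12610 genes raises such values, so they do not establish a likeness.

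Beyond the 10 genes, 58 genes of the insulin-like growth factor pathway were listed, among them proteases, adaptors, kinases and phosphatases, and 46 were tested. In saline minus control 7 were higher, 7 lower and 32 did not pass, with a median log2 change of 0.02. That is 15.2% in each direction, near the 14.3% higher and 12.8% lower of all genes. The higher genes with the largest change after H19 were Shc1, an adaptor of receptor tyrosine kinases (1.30 ± 0.21), Eif4ebp1, the translation repressor under mTOR (0.96 ± 0.22), Inpp5d, a lipid phosphatase of blood cells (0.65 ± 0.12), Stat5a, a transcription factor downstream of growth hormone (0.61 ± 0.17), and Pik3r1, a PI3-kinase subunit (0.46 ± 0.16). The lower genes with the largest change were Igfbpl1, a relative of the binding proteins (-0.43 ± 0.15), Pik3r2, another regulatory subunit (-0.42 ± 0.07), and Irs2, a substrate of the receptor (-0.37 ± 0.11). They were followed by Gsk3a, a kinase inhibited by Akt (-0.31 ± 0.08), Rheb, the activator of mTOR (-0.27 ± 0.07), and Tsc2, its inhibitor (-0.23 ± 0.08). In limma the adjusted p of these 12 genes was at most 0.043, and without saline replicates 1 and 5 the counts were 10 higher and 10 lower, with 44.1% of all genes called. Leaving out saline replicate 5 gave 21 calls, where 37.1% of all genes passed. Leaving out saline replicate 2 gave 8, and control replicate 3 or 5 or saline replicate 3 gave 9, where 15.6% to 19.6% passed.

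In hUMSC minus control 14 of the 46 genes were higher, 19 lower and 13 did not pass, with a median log2 change of -0.13, the same as over all genes. That is 30.4% higher and 41.3% lower, beside 24.7% and 37.3% of all genes. Shc1 (1.77 ± 0.20), Eif4ebp1 (1.61 ± 0.21), Stat5a (1.14 ± 0.16), Inpp5d (0.91 ± 0.12) and Pik3cd, a leukocyte PI3-kinase subunit (0.77 ± 0.15), followed H19. In control replicates 1 to 5 Shc1 stood at -3.61, -3.62, -3.54, -3.74 and -3.61, and the hUMSC samples lay at -2.25 to -1.45 without overlap. Pdpk1, the kinase that activates Akt (-0.73 ± 0.10), and Irs2 (-0.65 ± 0.11) had the largest falls of the genes that passed. Igfbpl1 (-0.61 ± 0.14), Gsk3b (-0.58 ± 0.07), Pik3r2 (-0.57 ± 0.07) and Gsk3a (-0.50 ± 0.08) came next. The insulin receptor Insr changed by -0.16 ± 0.10 and Akt1 by -0.02 ± 0.08, and neither passed in limma (adjusted p = 0.19 and 0.82).

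In hUMSC minus saline 2 of the 46 genes were higher, 9 lower and 35 did not pass. That is 4.35% higher and 19.6% lower, beside 4.82% and 7.98% of all genes. Pik3cd (0.54 ± 0.15) and Stat5a (0.53 ± 0.16) were the higher ones (limma, adjusted p = 0.033 and 0.045). Among the lower were Pik3r1 (-0.63 ± 0.15), Pik3r3 (-0.53 ± 0.08), Pdpk1 (-0.46 ± 0.10), Pik3ca, a catalytic PI3-kinase subunit (-0.42 ± 0.07), Ghr, the growth hormone receptor (-0.40 ± 0.09), and Gsk3b (-0.38 ± 0.07). These counts moved with the samples and the model. Without saline replicates 1 and 5, 0 of the 46 passed in limma (13 at an unadjusted p under 0.05), and 0.112% of all genes did. With only these 2 groups in the model 0 passed in limma (19 at an unadjusted p under 0.05), while 21 passed with slide as a block. Of all genes 0.230% and 31.2% passed in these fits. Leaving out single samples gave 3 calls without saline replicate 1, 4 without saline replicate 5 and 19 without saline replicate 2, with 0.899%, 1.85% and 20.8% of all genes called. It gave 6 without hUMSC replicate 5 or 6, 5 without hUMSC replicate 7 and 7 without hUMSC replicate 9, with 2.90% to 9.99% of all genes called.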

How the data were processed

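RNA labelled as brain from 16 rat samples was measured on one-colour Agilent arrays of 62976 spots, 58717 of them not controls, holding 30367 probes. The authors deposited scanner output; per the file headers, Agilent Feature Extraction 11.0.1.1 produced the processed signal, an intensity corrected for background and for spatial trend, and spot marks (well above background, saturated, outlier) are flags. The submitters' processing notes write version 100.0.1.1. The value table they deposited, also an intensity, equals the mean processed signal over a probe's spots, unscaled, with array medians of 207 to 277.

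Outlier spots were dropped, spots of a probe averaged, and log2 values taken relative to each array's 75th percentile; 9 probes that lost every spot on at least 1 array were excluded. Of the probes, 18355 matched a RefSeq symbol by accession. Probes well above background on at least 5 arrays were kept, and the brightest stood for a gene, giving 20471 genes, 12610 with a symbol. One limma 3.58.1 model (R 4.3.3) held a mean per group over all arrays with 13 residual degrees of freedom, and p-values were adjusted over all genes (Benjamini-Hochberg, threshold 0.05). The method was tested on simulated data with independent arrays and, for each gene, the same spread in every group. It therefore does not cover the wider spread of saline samples seen here, as for Igf1. Per array, 72.3% to 77.6% of probes were well above background, and the number of arrays limits the precision.

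The 10 genes were reported whatever their values. From the pathway list, up to 6 called genes with the largest change per comparison and direction were named, and for each of the 10 genes the 3 symbols whose deviations from group means correlated most. For Igf1 and Igfbp3, 1 of these is not reported here. Marker lists are given by counts and mean levels. The members and lists were chosen with earlier results of these data known. Samples were grouped by the labels, and the 5 numbers shared by control and saline samples were not taken as pairs. Alternatives in background, scaling, filter, probe, slide, weights and samples were run.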

Additional observations from a re-analysis of the deposited data

Results flagged for a closer look

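Of 33 groups of samples examined, 3 held a sample far from the rest, where chance alone gives about 1 in 20. Igf1r was high in saline replicate 5, at -1.94, with the nearest saline sample at -2.04. Igf2r was high in control replicate 3, at 2.05, with the nearest control at 1.96. That sample also had the highest red blood cell and neutrophil marker levels of the controls, at 3.59 and -5.22, and their part in the value was not tested. Igfbp7 was high in control replicate 4, at -2.58, with the nearest control at -3.21, and its 2 spots differed on every array.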

How the results depend on the processing

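The 7 calls of hUMSC minus control stayed at 7 in each fit that left out 1 replicate, and the count was 6 within slide 1 and 5 within slide 2. For saline minus control such fits gave 1 to 7 calls among the 10 genes, and for hUMSC minus saline 0 to 2. Within slide 1 the counts were 2 in saline minus control and 1 in hUMSC minus saline, and within slide 2 the count in saline minus control was 0 (limma; 1 at an unadjusted p under 0.05). With only the 2 groups compared, saline minus control gave 3, with 24.7% of all genes called. Of all genes 14.8% passed in saline minus control and 5.08% in hUMSC minus saline within slide 1. Within slide 2 these were 0.00488% and 0%. In hUMSC minus control 53.1% and 30.2% passed within slides 1 and 2. Fits without 1 replicate called 15.6% to 37.1% of all genes in saline minus control. They called 0.899% to 20.8% in hUMSC minus saline and 58.0% to 63.2% in hUMSC minus control. Among the 46 pathway genes saline minus control, with 14 calls, gave 9 with no filter on dim probes, 7 within slide 1, 0 within slide 2 (limma; 7 at an unadjusted p under 0.05) and 8 to 21 without 1 replicate. For hUMSC minus saline, with 11 calls, it gave 21 with slide as a block, 3 within slide 1, 0 within slide 2 (limma; 11 at an unadjusted p under 0.05), 1 with array weights, 0 with only the 2 groups compared (limma; 19 unadjusted), 0 without saline replicates 1 and 5 (limma; 13 unadjusted) and 3 to 19 without 1 replicate. For hUMSC minus control, with 33, it gave 12 within slide 2 and 31 to 33 without 1 replicate. Of all genes 16.5% passed in saline minus control with no filter on dim probes. In hUMSC minus saline 31.2% passed with slide as a block and 0.601% with array weights. It was 0.230% with only the 2 groups compared and 0.112% without saline replicates 1 and 5. Counts of 0 within slide 2 do not single out these genes, as almost no gene passed there in these 2 comparisons. The within-slide fits hold fewer samples, and otherwise the cause of the moving counts was not tested.

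None of the changes that turned sign passed in limma before or after. In hUMSC minus saline, H19 turned to -0.18, Igf1 to -0.39 and Igfbp6 to -0.016 without saline replicates 1 and 5, and Igf1 to -0.082 with array weights. Fits without 1 replicate gave Igf1 -0.091 to 0.51, Igf1r -0.050 to 0.0052 and Igfbp4 -0.00086 to 0.24. Within slide 1, Igf1r turned to 0.055 and Igfbp4 to -0.28. In hUMSC minus control, Igfbp4 turned to 0.0028 with quantile normalisation, 0.17 within slide 2, 0.0054 with array weights and to between -0.14 and 0.11 without 1 replicate, and Igfbp5 to 0.098 within slide 1. Igf2 in saline minus control passed with array weights (-0.62; limma, adjusted p = 0.0044), as did Igf2r (0.24; adjusted p = 0.014).

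Of the genes called in saline minus control 52.7% were higher, against 32.8% with median scaling, and in hUMSC minus saline 37.7% against 50.6%. Median scaling left the median change of all genes at -0.11 in saline minus control and at -0.17 in hUMSC minus control.

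Replicate numbers shared by control and saline samples correlated at -0.05, 0.18, 0.01, 0.11 and 0.17, and numbers 2 and 5 matched their own number best. As 2 of the 5 correlations were under 0.1, the samples were taken to share only a number. A replicate block gave 2 calls among the 10 genes and 6 among the pathway genes in saline minus control, with 15.6% of all genes called. No such block could be fitted for hUMSC, which shares 1 number with the other groups.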
